A study of Mus musculus with 6 samples.

Results

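The 4 Notch receptors (Notch1, Notch2, Notch3 and Notch4) and the 5 canonical Notch ligands (Dll1, Dll3, Dll4, Jag1 and Jag2) were examined in cultured mouse cochleae with and without neomycin damage. The 9 genes were chosen by symbol from the 24421 genes of the count table, and all 9 were among the 15988 genes with enough counts to be tested. The explants were cochleae of wild-type mice at postnatal day 2, cultured for 12 h before treatment. The neomycin group received 1 mM neomycin, an aminoglycoside that kills hair cells (HCs), for 6 h, and culture continued for a further 5 days with EdU at 10 μM, which marks dividing cells. The control group was taken as explants without neomycin, from its treatment label, although the culture text attached to the samples is the same for both groups. There were 3 samples in each group, and each sample was a pool of 6 to 8 cochleae without modiolus, tectorial membrane or stria vascularis, which were dissected away.

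Notch receptors are single-pass membrane proteins that are cut when a ligand on a neighbouring cell binds them, and the released intracellular part enters the nucleus and acts with RBPJ on target genes such as those of the Hes and Hey families. In the organ of Corti this contact signal sets the mosaic of HCs and supporting cells (SCs). Nascent HCs present Dll1 and Jag2, Notch1 in the surrounding cells receives them, and Jag1 is made by prosensory cells and then by SCs. Dll3, which is also found in young HCs, is a ligand-like protein that acts inside its own cell and does not activate receptors on neighbours. In blood vessels the same pathway uses Dll4 and Notch4 in endothelium and Notch3 in pericytes and smooth muscle. Accordingly Notch1, Dll1, Dll3, Jag1 and Jag2 were described as epithelial, Dll4, Notch3 and Notch4 as vascular, and Notch2, a receptor of many cell types, apart from both. This division is by known role, since Notch1 and Jag1 also work in vessels and the samples were whole explants.

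Libraries held between 50471116 and 66068108 counts. Markers of the cell types that the explants should hold were detected, and several of them differed between the groups. Of 20 HC markers, 18 were lower after neomycin by a call that asked for both a fold change over 1.5 and an adjusted p-value under 0.05, with a median log2 fold change of -1.66. Of 22 endothelial markers, 15 were lower by the same call, with a median of -1.34. The medians of the other marker lists were 0.14 for SCs, -0.38 for pericytes and smooth muscle, -0.08 for mesenchyme, -0.47 for neurons, -0.11 for Schwann cells and glia and 0.39 for macrophages. In bulk explants, fewer cells of a type and less RNA per cell cannot be told apart.

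All 9 genes had a promoter sequence in RefSeq on GRCm38.p6, the assembly that mm10 carries. Those of 5 genes are shown, among them the 3 genes with the motif marked below. Dll1 had 2 promoters, and the one with the motif is shown. Each promoter covers 250 bases before and 50 bases after an annotated start and reads 5′ to 3′ on the strand of the gene. Capitals mark CAGCTG, the core E-box of the kind that basic helix-loop-helix factors bind, which reads the same on both strands. It was found in promoters of 3 of the 9 genes, Dll1, Dll3 and Jag1, and 16.3% of all 32851 mouse promoters in the same table hold it. The letters GTGGGAA, the core of the RBPJ site, and CCGGAAG, a core of ETS sites, were searched on both strands and were found in 0 of the 10 promoters of the 9 genes, where 6.38% and 8.86% of all promoters hold them. These are matches of letters in a short window and were not tested as binding sites.
Dll4, plus strand, chr2:119325534-119325833: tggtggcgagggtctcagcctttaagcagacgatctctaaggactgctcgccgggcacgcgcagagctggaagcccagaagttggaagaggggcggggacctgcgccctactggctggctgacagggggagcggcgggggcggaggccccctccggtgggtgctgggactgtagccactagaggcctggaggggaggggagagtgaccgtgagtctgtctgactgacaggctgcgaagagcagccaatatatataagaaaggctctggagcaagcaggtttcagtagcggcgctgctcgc
Notch4, plus strand, chr17:34564045-34564344: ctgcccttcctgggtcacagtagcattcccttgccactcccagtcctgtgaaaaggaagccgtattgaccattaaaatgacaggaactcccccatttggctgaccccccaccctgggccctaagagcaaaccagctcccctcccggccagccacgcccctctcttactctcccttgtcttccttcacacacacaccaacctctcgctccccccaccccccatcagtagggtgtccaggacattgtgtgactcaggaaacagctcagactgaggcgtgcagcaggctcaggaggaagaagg
Dll1, minus strand, chr17:15376883-15377182: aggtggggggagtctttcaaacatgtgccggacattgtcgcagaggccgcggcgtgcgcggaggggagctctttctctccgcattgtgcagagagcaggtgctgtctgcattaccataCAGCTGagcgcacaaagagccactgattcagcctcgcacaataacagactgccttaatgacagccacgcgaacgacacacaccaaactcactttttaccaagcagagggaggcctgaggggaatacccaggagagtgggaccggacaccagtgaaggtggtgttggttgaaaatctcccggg
Dll3, minus strand, chr7:28301736-28302035: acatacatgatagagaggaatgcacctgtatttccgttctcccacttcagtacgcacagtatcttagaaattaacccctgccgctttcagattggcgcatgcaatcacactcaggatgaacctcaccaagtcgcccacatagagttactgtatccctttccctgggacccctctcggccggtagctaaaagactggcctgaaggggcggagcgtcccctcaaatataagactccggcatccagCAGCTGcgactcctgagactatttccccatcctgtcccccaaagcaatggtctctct
Jag1, minus strand, chr2:137116471-137116770: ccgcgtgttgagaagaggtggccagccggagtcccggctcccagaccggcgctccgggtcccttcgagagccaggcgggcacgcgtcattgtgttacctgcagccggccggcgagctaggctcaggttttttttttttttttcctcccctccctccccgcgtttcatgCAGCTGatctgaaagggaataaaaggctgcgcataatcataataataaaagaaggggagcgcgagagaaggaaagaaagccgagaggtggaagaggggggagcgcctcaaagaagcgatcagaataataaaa

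Most of the Notch receptors and ligands were lower after neomycin. Dll4, Dll1 and Notch3 fell with a fold change over 1.5, and Jag2, Notch1 and Jag1 fell by less than that. Notch4 and Dll3 missed the threshold in opposite directions, and Notch2 had nearly the same mean in both groups. Tested by the quasi-likelihood method of edgeR, with p-values adjusted by Benjamini-Hochberg across the whole table and a threshold of 0.05, 6 of the 9 genes were lower and 0 were higher, beside 16.1% of all genes tested that were lower and 12.9% that were higher. The count of 6 was 3 without control replicate 2, 3 without neomycin replicate 2 and 3 with a correction for transcript length. It was 4 without control replicate 1, without neomycin replicate 3 and with a correction for exon length. Both corrections put Notch2 past the threshold as higher, and leaving out control replicate 1 put Dll3 there. Called with a fold change over 1.5 in addition, 3 of the 9 were lower and 0 higher, beside 6.60% and 2.24% of all genes. DESeq2 and limma-voom also called 0 higher, and 1 gene, Dll3, was higher at an unadjusted p under 0.05. For 7 of the 9 genes every neomycin sample lay below every control sample, where 22.5% of all genes did so, and for 1 gene every neomycin sample lay above, where 21.0% did. The median log2 fold change was -0.41 over the 9 genes, -0.32 over the 5 epithelial genes and -0.61 over the 3 vascular genes, against 0.00 over all genes tested.

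**Figure D1:**
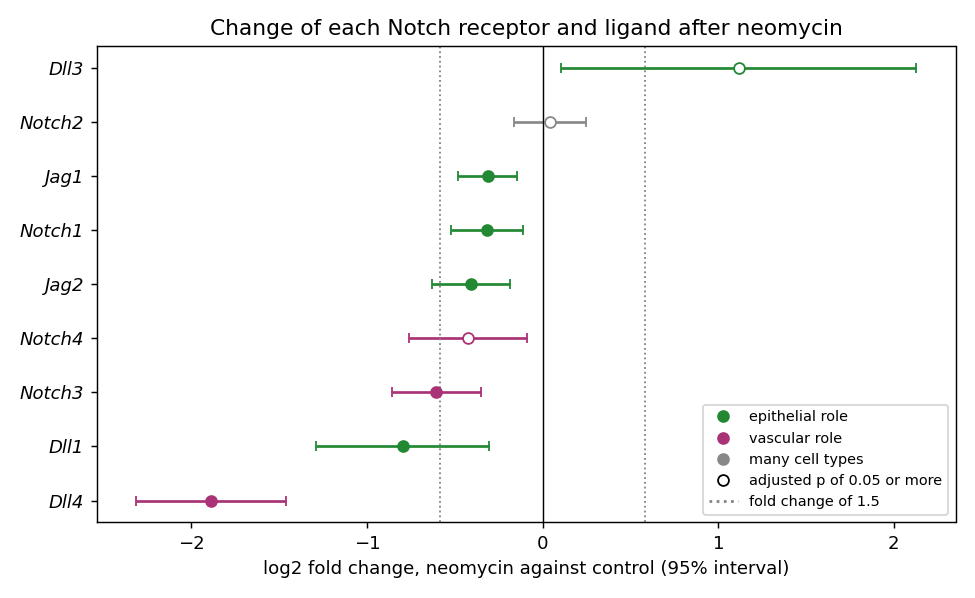
Log2 fold change of each gene, neomycin against control (x axis), with its 95% interval from edgeR (n = 3 in each group); colours give the known role, open circles an adjusted p-value of 0.05 or more, and dotted lines a fold change of 1.5. Dll4 at -1.89 lies apart from the other lower genes, which lie between -0.80 and -0.31, and Dll3 is at 1.12 with a wide interval.

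Levels were compared between genes as CPM per kb, where CPM is the count of a gene relative to the TMM-scaled total of its library, divided here by the length of the longest coding transcript. In the control group Jag1 was the highest at 17.9 ± 0.416 CPM per kb (SD, n = 3 here and below), followed by Notch1 at 15.0 ± 1.91. Notch3 stood at 6.03 ± 1.00, Jag2 at 4.48 ± 0.356 and Notch2 at 3.73 ± 0.515. The low end held Dll4 at 1.99 ± 0.215, Notch4 at 1.58 ± 0.332, Dll1 at 1.16 ± 0.163 and Dll3 at 0.143 ± 0.0816. Neighbours in this order whose control samples overlapped were Jag2 with Notch2 and Dll4 with Notch4. Jagged ligands thus stood above Delta ligands in RNA of the whole explant.

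After neomycin Jag1 at 14.4 ± 1.29 and Notch1 at 12.1 ± 0.839 CPM per kb remained the highest ligand and receptor. Notch3 fell to 3.96 ± 0.428, where its samples overlapped those of Notch2 at 3.85 ± 0.00723 and of Jag2 at 3.38 ± 0.331. Dll4 went from above Notch4 to below it, at 0.539 ± 0.134 against 1.18 ± 0.121, and its samples then overlapped those of Dll1 at 0.669 ± 0.185. Dll3 was still the lowest, at 0.316 ± 0.0805.

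Within the receptors, the summed level was 30.3, 25.8 and 23.0 CPM per kb in control and 22.3, 20.3 and 20.5 in the neomycin samples. Notch1 made up 57.1% ± 0.765 of that sum in control and 57.3% ± 1.45 after neomycin, so the share of the main receptor moved by less than its spread. The share of Notch2 went from 14.2% ± 0.431 to 18.3% ± 0.960 and that of Notch3 from 22.8% ± 0.577 to 18.8% ± 1.73. Within the ligands, the summed level was 26.1, 25.5 and 25.3 CPM per kb in control and 20.3, 19.3 and 18.2 after neomycin. Jag1 took 69.7% ± 2.09 of the ligand sum in control and 74.5% ± 2.57 after neomycin, while the share of Dll4 went from 7.77% ± 0.788 to 2.79% ± 0.608.

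**Figure D2:**
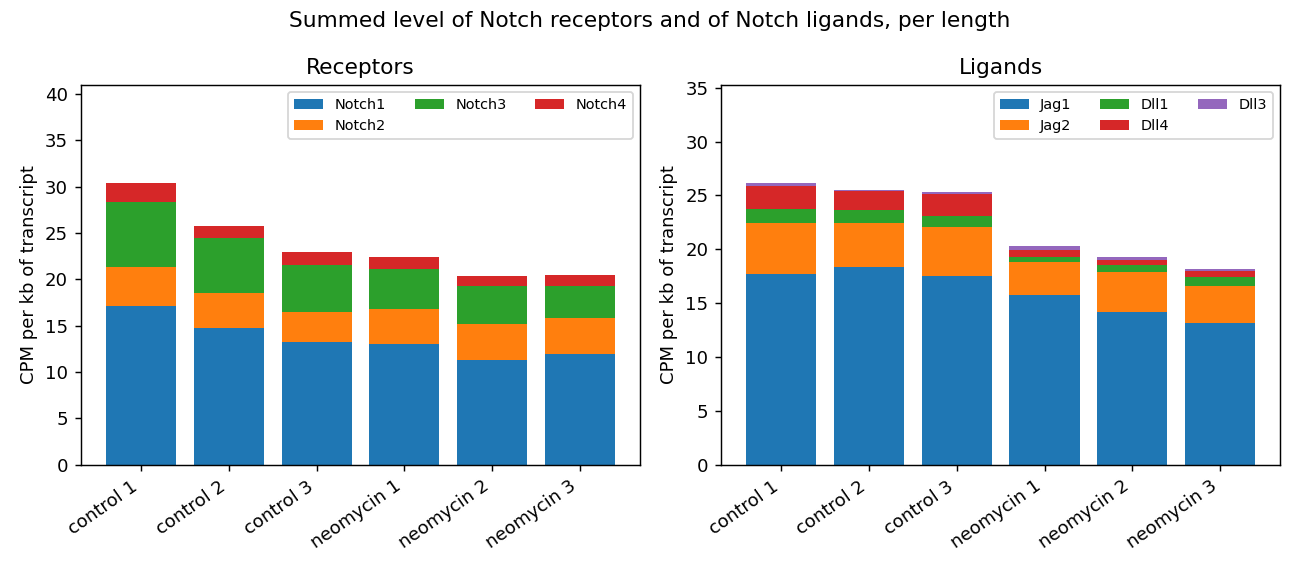
Stacked levels of the 4 receptors (left) and 5 ligands (right) in each of the 6 samples, in CPM per kb of the longest coding transcript. The ligand total lies between 25.3 and 26.1 in the control samples and between 18.2 and 20.3 after neomycin, and Jag1 and Notch1 form most of each bar.

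Notch1 (ENSMUSG00000026923.15), the main receptor of the sensory epithelium, lies on chromosome 2 from 26457903 to 26516663 (mm10, GENCODE M21, as for the other genes). It had 162, 140 and 126 CPM in control replicates 1, 2 and 3 and 123, 107 and 113 CPM after neomycin. All 3 neomycin samples were below the lowest control sample, by a narrow gap. The log2 fold change was -0.32 (standard error 0.09, 95% interval -0.52 to -0.11, edgeR adjusted p = 0.0245), a level 19.7% lower. The adjusted p rose to 0.466 with a correction for exon length, at a log2 fold change of -0.07, and to 0.867 with one for transcript length. It was also 0.100, 0.0670, 0.121 and 0.0720 without control replicate 1, control replicate 2, neomycin replicate 2 and neomycin replicate 3.

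Notch2 (ENSMUSG00000027878.11), on chromosome 3 from 98013527 to 98150361, had 44.3, 39.7 and 33.6 CPM in control and 40.4, 40.3 and 40.5 CPM after neomycin. The neomycin samples lay inside the range of the control samples. Its log2 fold change was 0.04, with a 95% interval of -0.16 to 0.25 (edgeR, standard error 0.09, adjusted p = 0.767). With the correction for exon length it was 0.25 (adjusted p = 0.0282), and with that for transcript length 0.36 (adjusted p = 0.00227). The log2 ratio of Notch1 to Notch2 does not depend on library scaling, and it was 1.87, 1.82 and 1.91 in control and 1.61, 1.41 and 1.48 after neomycin. The groups did not overlap in this ratio (exact two-sided permutation test, p = 0.1, which no comparison of 3 with 3 samples can go below).

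Across genes, long genes were lower after neomycin, with a slope of -0.13 in log2 fold change per log2 unit of exon length, so the receptors, with coding transcripts of 6591 to 10500 bases, are the members on which a length correction bears most. Whether this trend belongs to the libraries or to the tissue was not tested.

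Jag1 (ENSMUSG00000027276.7), the SC and prosensory ligand, lies on chromosome 2 from 137081456 to 137116644. It had 99.3, 103 and 98.5 CPM in control and 88.3, 79.8 and 73.8 CPM after neomycin, so the groups were clearly apart and the control samples close together. The log2 fold change was -0.31 (standard error 0.08, 95% interval -0.48 to -0.15, edgeR adjusted p = 0.0103), a level 19.5% lower. Among SC markers the transcription factor Sox2 had 79.3 ± 1.01 CPM in control and 91.9 ± 9.40 after neomycin (edgeR adjusted p = 0.0640), and Prox1 fell from 4.08 ± 1.12 to 1.49 ± 0.328 CPM (edgeR adjusted p = 0.00198). Of the 20 SC markers, 3 were lower and 5 higher at an adjusted p-value under 0.05, with a summed level of 9332 to 10960 CPM in control and 11978 to 15323 CPM after neomycin. Tectb, a tectorial membrane protein, alone had 4230 ± 596 CPM in control and 6445 ± 1520 after neomycin, the median log2 fold change of the list was 0.14, and 12 of its markers did not pass. The adjusted p of Jag1 was 0.0507, 0.0561 and 0.0552 without control replicate 2, neomycin replicate 2 and neomycin replicate 3, and 0.191 with the correction for transcript length, at a log2 fold change of -0.13.

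Jag2 (ENSMUSG00000002799.6), a ligand of HCs, lies on chromosome 12 from 112907819 to 112929776. It had 24.4, 20.9 and 23.3 CPM in control and 15.5, 18.9 and 17.3 CPM after neomycin, without overlap. The log2 fold change was -0.41 (standard error 0.10, 95% interval -0.63 to -0.19, edgeR adjusted p = 0.0112), a level 24.6% lower, and its adjusted p was 0.0505 and 0.112 with the corrections for exon and transcript length.

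Dll1 (ENSMUSG00000014773.13), the other activating ligand of HCs, lies on chromosome 17 from 15367354 to 15376872, and its promoter with the E-box is shown above. It had 4.49, 4.50 and 3.49 CPM in control and 1.77, 2.32 and 3.09 CPM after neomycin, from 310, 235 and 196 counts and 94, 137 and 166 counts. Neomycin replicate 3 came near the lowest control sample, and the groups did not overlap. Dll1 fell by 0.80 on the log2 scale (standard error 0.23, 95% interval -1.29 to -0.30, edgeR adjusted p = 0.0209), a level 42.5% lower. The adjusted p was 0.0597, 0.0844, 0.0565 and 0.0731 without control replicate 1, control replicate 2, neomycin replicate 1 and neomycin replicate 2, at log2 fold changes between -0.78 and -0.62.

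Both HC ligands had smaller fold changes than the HC marker Pou4f3, a transcription factor of HCs, which went from 25.2 ± 1.52 to 5.60 ± 2.26 CPM (log2 fold change -2.17, edgeR adjusted p = 2.69e-05). Myo7a, the HC myosin, moved by -1.14 on the log2 scale (edgeR adjusted p = 7.94e-05), inside the 95% interval of Dll1. Of the 20 HC markers 18 were called lower. Those not called, Atoh1 (log2 fold change -0.05, edgeR adjusted p = 0.90) and Myo6 (-0.36, edgeR adjusted p = 0.00865), had smaller fold changes than both ligands. The summed level of the 20 HC markers was 1046 to 1211 CPM in control and 372 to 441 CPM after neomycin. Jag2 and Dll1 were also set against the mean log2 CPM of those markers in the same library. On the log2 scale Jag2 was higher after neomycin by 1.36 ± 0.322 and Dll1 by 0.96 ± 0.620, and for neither gene did the groups overlap in this ratio. Of the other members, only Dll4 overlapped between the groups in this ratio. Notch1, Jag1 and Notch2 were higher by 1.46 ± 0.185, 1.46 ± 0.0969 and 1.82 ± 0.226. Set against the 22 endothelial markers in the same way, Dll1 was higher by 0.70 ± 0.404, with overlap between the groups. Jag2 was higher by 1.11 ± 0.245 in that ratio, without overlap. The part of the HC or endothelial markers in the change of Jag2 or Dll1 was not tested.

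Dll3 (ENSMUSG00000003436.11), on chromosome 7 from 28293553 to 28302238, was the rarest of the 9 genes, with 42, 10 and 18 counts in control and 55, 49 and 33 counts after neomycin. This corresponded to 0.609, 0.192 and 0.320 CPM in control and 1.04, 0.830 and 0.614 CPM after neomycin. Control replicate 1 all but reached neomycin replicate 3, so the groups were barely apart. The log2 fold change was 1.12 (standard error 0.47, 95% interval 0.10 to 2.13, unadjusted p = 0.0332, edgeR adjusted p = 0.0910). It did not pass the threshold, and without control replicate 1 it was 1.68 (adjusted p = 0.0393), also past it in fold change. Dll3 and Dll1 went opposite ways, with a log2 ratio of Dll1 to Dll3 of 2.81, 4.32 and 3.31 in control and 0.75, 1.45 and 2.27 after neomycin. The groups did not overlap in that ratio (exact two-sided permutation test, p = 0.1).

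**Figure D3:**
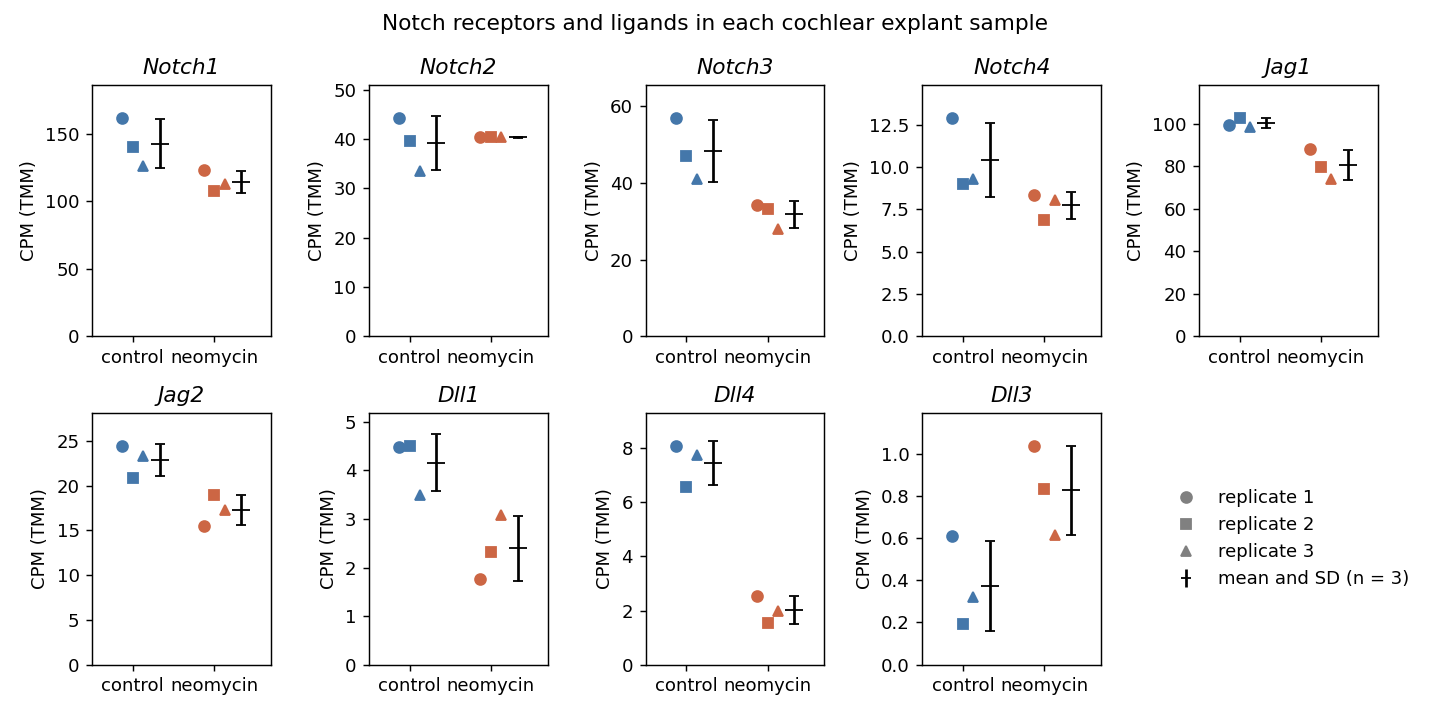
CPM (counts relative to the TMM-scaled library total) of each gene in the 3 control and 3 neomycin samples, 1 point per sample with the symbol giving the replicate number, and the mean with its SD beside them; each y axis starts at 0. Dll4 shows the widest gap relative to its level, with 6.56 to 8.09 CPM in control against 1.54 to 2.54 after neomycin, Notch2 overlaps, and Dll3 is the gene whose neomycin samples lie above the control samples.

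Among the vascular genes, Dll4 (ENSMUSG00000027314.6), the ligand of endothelial tip cells and arteries, showed the largest change of the 9 in size. It lies on chromosome 2 from 119325784 to 119335962, and its promoter is shown above. It had 8.09, 6.56 and 7.76 CPM in control and 2.54, 1.54 and 1.97 CPM after neomycin, from 558, 342 and 436 counts and 135, 91 and 106 counts. Every neomycin sample was far below every control sample. Dll4 fell by 1.89 on the log2 scale (standard error 0.20, 95% interval -2.32 to -1.46, edgeR adjusted p = 4.59e-05), a level 73.0% lower, and it was called in all 16 alternative settings. Gm14207, on the opposite strand, overlaps Dll4 and had 45 to 84 counts in control and 22 to 39 after neomycin.

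Notch4 (ENSMUSG00000015468.14), the receptor of endothelium, lies on chromosome 17 from 34564268 to 34588503. It had 12.9, 8.99 and 9.27 CPM in control and 8.34, 6.85 and 8.08 CPM after neomycin. The neomycin samples were all lower, and control replicate 1 stood above the other control samples. The log2 fold change was -0.43 (standard error 0.15, 95% interval -0.76 to -0.09, edgeR adjusted p = 0.0562), so it did not pass the threshold in this fit. It passed by DESeq2 (adjusted p = 0.0381), without the filter on low counts (adjusted p = 0.0410) and without control replicate 3 (adjusted p = 0.0433), and it had -0.23 (adjusted p = 0.277) without control replicate 1, -0.28 (adjusted p = 0.173) with the correction for exon length and -0.19 (adjusted p = 0.383) with that for transcript length.

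The endothelial ligand and receptor were also set against each other within each library. The log2 ratio of Dll4 to Notch4 was -0.67, -0.45 and -0.26 in control and -1.70, -2.13 and -2.01 after neomycin, a difference of -1.49 between the group means, and the groups did not overlap (exact two-sided permutation test, p = 0.1). Of 5 pairs of members compared in this way, the groups overlapped for Dll1 with Jag2 (p = 0.2) and for Jag2 with Jag1 (p = 0.6) and did not for the other 3 (exact permutation tests, Benjamini-Hochberg adjusted p = 0.167 for the latter). With 3 samples in each group these tests cannot pass the threshold of 0.05. How often the groups overlap in ratios of other gene pairs was not tested. Among single genes, 22.5% lay lower and 21.0% higher without overlap.

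Most endothelial markers were also lower after neomycin, as were most HC markers. Pecam1, the adhesion molecule CD31, had 10.7, 6.65 and 12.0 CPM in control and 1.81, 1.71 and 0.949 CPM after neomycin (log2 fold change -2.71, edgeR adjusted p = 2.67e-05). Cdh5, the endothelial cadherin, had 9.61, 7.99 and 8.82 CPM in control and 1.88, 2.29 and 2.20 CPM after neomycin (log2 fold change -2.05, edgeR adjusted p = 3.99e-06). Of the 22 markers 15 fell, 7 did not pass, and 0 rose. Their summed level was 417 to 479 CPM in control and 376 to 431 CPM after neomycin, a small shift because Emcn alone had 252 ± 12.1 and 273 ± 26.2 CPM. Set against the mean log2 CPM of the 22 markers in the same library, Dll4 was lower after neomycin by 0.38 ± 0.265 on the log2 scale and Notch4 higher by 1.11 ± 0.0453, and neither ratio overlapped between the groups. Of the other members, only Dll1 overlapped between the groups in this ratio. Notch1, Jag1 and Notch2 were higher by 1.20 ± 0.0772, 1.20 ± 0.172 and 1.57 ± 0.115. Set against the 20 HC markers in the same way, Dll4 was lower by 0.12 ± 0.317, and the groups overlapped in that ratio. The part of the endothelial or HC markers in the change of Dll4 was not tested.

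Notch3 (ENSMUSG00000038146.8), the receptor of pericytes and vascular smooth muscle, lies on chromosome 17 from 32120820 to 32166852. It had 56.9, 47.1 and 41.0 CPM in control and 34.2, 33.2 and 27.9 CPM after neomycin, and the groups did not overlap. Notch3 fell by 0.61 on the log2 scale (standard error 0.12, 95% interval -0.86 to -0.35, edgeR adjusted p = 0.00283), a level 34.3% lower. The adjusted p stayed under 0.05 in all 16 alternative settings, while the fold change was under 1.5 with upper quartile scaling, with each length correction and without control replicate 1 or neomycin replicate 3. Of 12 tested markers of pericytes and smooth muscle, 4 were lower and 1 higher at an adjusted p-value under 0.05, 2 were called lower, the median log2 fold change was -0.38, and their summed level was 391 to 430 CPM in control and 335 to 369 CPM after neomycin. The called ones were Kcnj8 (log2 fold change -1.58, edgeR adjusted p = 0.000341) and Abcc9 (-1.29, edgeR adjusted p = 0.00208), the subunits of a potassium channel of pericytes, and both had larger fold changes than Notch3. Pdgfrb, a receptor of pericytes and mesenchyme, moved by -0.37 on the log2 scale (edgeR adjusted p = 0.00342), and the pericyte marker Rgs5 had -0.05 (edgeR adjusted p = 0.865). The ratio of Notch3 to the mean log2 CPM of these markers overlapped between the groups. So did the ratios of Notch1, Notch4, Jag1, Jag2 and Dll1 to these markers, while those of Notch2, Dll3 and Dll4 did not.

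The genes with the profile nearest to a called member were found by the root mean square difference of log2 CPM over the 6 samples, taken relative to the control mean, among 14036 genes with a mean of at least 1 CPM. For Dll4 they were Elfn2, Cdkl1 and Dscaml1, at differences of 0.13, 0.13 and 0.16. For Dll1 they were Fstl3, Sema7a and Cbr2, at 0.10, 0.12 and 0.13. For Notch3 they were Zfp646, Gm5113 and Ly75, at 0.04, 0.06 and 0.06. None of these 9 genes belonged to the marker or Notch lists used here. Members were also set against the median profiles of 5 marker lists (HCs, SCs, endothelium, pericytes and smooth muscle, mesenchyme). The lists of neurons, Schwann cells and glia, and macrophages were not compared, so the nearest list is the nearest among these 5. Dll4 was nearest to HCs at 0.29 and next to endothelium at 0.41. Notch3 and Dll1 were nearest to pericytes and smooth muscle, at 0.27 and 0.42. The uncalled Notch1, Jag1, Jag2 and Notch4 were also nearest to that list, and closer, at 0.10, 0.13, 0.15 and 0.18. Notch2 and Dll3 were nearest to SCs, at 0.12 and 0.87.

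Of 54 other genes of the Notch pathway, covering ligand relatives, processing enzymes, ubiquitin ligases, co-factors and targets, 17 were lower and 4 higher at an adjusted p-value under 0.05, and 33 did not pass, beside the 16.1% lower and 12.9% higher of all genes. Their median log2 fold change was -0.10. The call with a fold change over 1.5 took 5, all lower, beside the 6.60% of all genes called lower. Mib1, the ubiquitin ligase that ligand-sending cells need, had 20.6, 20.5 and 13.3 CPM in control and 7.83, 8.63 and 5.85 CPM after neomycin (log2 fold change -1.28, edgeR adjusted p = 0.000396). Dner, a Delta-like transmembrane protein of neurons, had 18.6, 18.1 and 18.8 CPM in control and 8.42, 8.80 and 7.04 CPM after neomycin (log2 fold change -1.19, edgeR adjusted p = 1.92e-05). Of 10 neuron markers 4 were called lower, 1 was higher at an adjusted p-value under 0.05, and 5 did not pass. Of 20 HC markers 18 were called lower. The part of either list in the change of Dner was not tested. The other 3 called pathway genes were the RBPJ-associated corepressor Spen (log2 fold change -0.89), the acetyltransferase Crebbp (-0.86) and the membrane protein Dlk2 (-0.73). Dlk2 is a Delta-like relative without the receptor-binding domain. With the correction for transcript length Spen and Crebbp had -0.55 and -0.54, under a fold change of 1.5. With the corrections for exon and transcript length Mfng was called lower (log2 fold change -0.59 and -0.63) and Dlk1, another Delta-like relative, was called higher (0.59 and 0.66).

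Among smaller changes past an adjusted p-value of 0.05 were those of the acetyltransferase Ep300 (log2 fold change -0.51), Ctbp2 (-0.44) and the fringe enzymes Mfng (-0.49) and Lfng (-0.36). The Notch feedback inhibitor Nrarp (-0.40) and Hes6 (0.36), a Hes relative of differentiating cells, were also past it. With the corrections for exon and transcript length Hes6 had 0.16 and 0.13 (edgeR adjusted p = 0.136 and 0.217), and Ep300 had -0.26 and -0.20 (edgeR adjusted p = 0.0225 and 0.0506). Nrarp, which is also a direct target of the pathway, kept an adjusted p-value under 0.05 with both corrections, as did Mfng, Lfng and Ctbp2. Hes1, Hes5 and Hey1, other known targets, were chosen after their values were seen and did not pass. Hes5 had 4.48 CPM on average in control and 4.03 after neomycin (edgeR adjusted p = 0.582), Hes1 24.9 and 28.0 (edgeR adjusted p = 0.188), and Hey1 81.5 and 75.2 (edgeR adjusted p = 0.312).

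**Figure D4:**
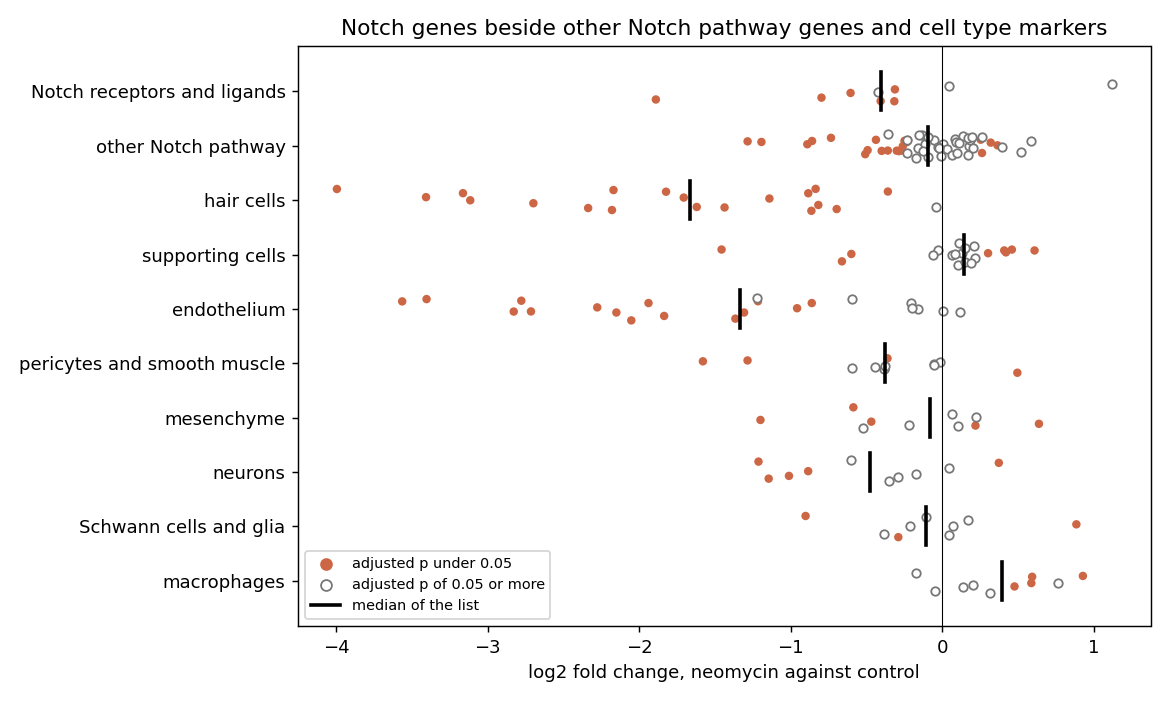
Log2 fold change of every tested gene, neomycin against control (x axis), in the 9 Notch receptors and ligands, 54 other Notch pathway genes and 8 lists of cell type markers; filled points had an adjusted p-value under 0.05 and black lines are list medians. The medians are -1.66 for HC and -1.34 for endothelial markers, -0.41 for Notch receptors and ligands and -0.10 for the other pathway genes.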

How the data were processed

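RNA-seq was performed on 3 control and 3 neomycin samples. Per the labels and the methods, the authors processed reads with CASAVA 1.8 and Trimmomatic 0.23, aligned them to mm10 with HISAT2 and counted them with HTSeq. The authors deposited raw counts per gene symbol, with no normalization. The strand setting and the handling of multiply mapped reads are not given in the sources used here, and 5 of the 9 genes have an annotated gene on the opposite strand.

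Counts were filtered with filterByExpr, scaled by TMM and tested with edgeR 4.0.16 (R 4.3.3) by the quasi-likelihood test, with Benjamini-Hochberg adjustment over 15988 genes. Genes were called at a fold change over 1.5 where the adjusted p-value was also under 0.05. Standard errors were derived from the F statistic and the log2 fold change. Log2 CPM used a prior count of 2. Depth was 50471116 to 66068108 counts. Nothing shows that the samples of a group came from separate litters. The p-values therefore set the group difference against the spread between these samples only. DESeq2 1.42.0, limma-voom (limma 3.58.1), other scalings and filters, a replicate block, samples left out and a correction for exon length (lowess, span 0.3; 96.2% of tested genes had a length) were alternatives. The correction for transcript length was added after seeing the data. Lengths and positions are from GENCODE M21, promoters from RefSeq. The code was tested on simulated data.

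The genes and lists were chosen with earlier results of these data known. Those named are the 9 members, defining cell type markers, the 3 nearest profiles of each called member, and, of the other Notch genes, those called and the 6 next in fold change at an adjusted p-value under 0.05. Hes1, Hes5, Hey1, Dlk1, Emcn, Tectb, Kcnj8, Abcc9, Atoh1, Myo6 and Gm14207 were named after their values were seen.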

Additional observations from a re-analysis of the deposited data

How the results depend on the processing

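Dll4 kept its call in all 16 alternative settings and Notch3 its adjusted p-value under 0.05. Over the 9 genes, 117 of 143 values kept their direction and their side of the threshold, 17 no longer passed it and 8 newly passed it. Notch2 turned direction in 1 setting, without control replicate 3 (edgeR adjusted p = 0.687), and its log2 fold change with 1 sample left out was between -0.046 and 0.149, against 0.043. Most lost and new calls of a named gene are given with that gene. Without a fold change threshold the counts were 4629 genes in all, 6 receptors and ligands lower and 21 other Notch pathway genes, against 1413, 3 and 5, because the threshold is dropped. With 1 sample left out at a time, the count of receptors and ligands called lower was between 1 and 3 and of those called higher between 0 and 1. The count past an adjusted p-value of 0.05 alone, 6 lower, was between 3 and 7 over all settings. The called count was 1 lower, Dll4, without control replicate 1, which was also the setting where Dll3 was called higher. Deviations from the group mean correlated across genes at 0.165, 0.0264 and 0.0949 between samples with the same replicate number. Between samples with different numbers the correlations were -0.129 to 0.032. The labels do not give the numbers as pairs, and the main fit did not take them so. With the replicate number as a block, 1465 genes in all, 3 receptors and ligands and 5 other pathway genes were called, and Notch4 had an adjusted p of 0.0227, while no other of the 9 genes changed its side of the threshold. Dll3 was not tested with a filter of 1 CPM in 3 samples. Depth limited Dll3 most, with 10 to 55 counts in a sample.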
